A study of Homo sapiens with 6 samples.

Results

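PROM1, NES, VIM, FABP7, CD44, BMI1, POU3F2, FUT4 and KLF4 are 9 genes by which neural stem and progenitor cells, and the stem-like fraction of brain tumours, are commonly recognised. They were chosen by gene symbol, and each has 1 row among the 31785 rows of the deposited expression table. The data are 6 RNA sequencing libraries of D283 Med, an established line from a childhood medulloblastoma, which is a cerebellar tumour, kept in medium with fetal bovine serum. The labels give 3 libraries the genotype WT and 3 that of a knockdown of Musashi-1, the RNA-binding protein of neural progenitors encoded by MSI1. The comparison asks how these markers stand after the knockdown. The sources used here do not give how it was made, whether a control construct was put into WT cells, or whether replicate libraries are separate cultures, so p-values measure the spread between these libraries, which may be technical. The knockdown columns of the table are headed as such. The remaining 3, whose heading is not explained by the labels, were taken as WT by elimination and carry the numbers of their columns.

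Neural progenitors carry intermediate filaments of nestin (NES) and vimentin (VIM) that neurons replace with neurofilaments as they mature. They display surface molecules used to sort them, among them prominin-1 (PROM1, the antigen CD133), the hyaluronan receptor CD44 and the Lewis X sugar CD15 that the enzyme FUT4 can build. Inside, the Polycomb protein BMI1 keeps cell cycle inhibitors silent and so sustains self-renewal, POU3F2 (BRN2) and KLF4 are transcription factors of progenitor and pluripotent states, and FABP7 is the fatty acid carrier of radial glia.

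Values are normalised reads, that is reads divided by 1 size factor per library, recovered from the deposited log2-like values. The WT libraries held 17299671 to 38790342 reads each, and those of the knockdown 18895997 to 24442276. The targeted gene MSI1 had 1586, 1572 and 1378 normalised reads in WT 1, 2 and 3, against 1385, 1197 and 1281 in knockdown 1, 2 and 3. The knockdown mean was 85.2% of WT, the groups overlapped, and the difference of −0.21 (SE 0.12, log2 scale) did not pass (limma, adjusted p = 0.304). The libraries labelled knockdown thus held less MSI1 mRNA on average without passing the test, and each direction given here rests on these labels. Of 8 medulloblastoma markers, OTX2, MYC, NEUROD1 and ZIC1 were at or above 974 normalised reads in each library, while BARHL1, EOMES and LMX1A had means under 20 normalised reads in each group and ZIC2 rose from a mean of 22.5 to 79.6 (limma, adjusted p = 0.0230), a call lost in 3 of 14 alternatives, those without any 1 knockdown library (adjusted p 0.0133 to 0.0873). Markers of astrocytes summed to 4.05 to 11.3 normalised reads per library over 4 genes, those of myeloid cells to 0 to 27.6 over 3, those of endothelium to 160 to 313 over 4, and those of fibroblasts to 275 to 337 over 4. The oligodendrocyte markers MBP and MAG were near 0.

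The start regions of the member at the bottom of the range, FABP7, and of that at the top, VIM, are shown because these genes differ most in level. Each runs from 250 bases before to 50 bases after the RefSeq start (GRCh38.p14), and capitals mark CpG dinucleotides.
FABP7, chr6:122779466-122779765, plus strand: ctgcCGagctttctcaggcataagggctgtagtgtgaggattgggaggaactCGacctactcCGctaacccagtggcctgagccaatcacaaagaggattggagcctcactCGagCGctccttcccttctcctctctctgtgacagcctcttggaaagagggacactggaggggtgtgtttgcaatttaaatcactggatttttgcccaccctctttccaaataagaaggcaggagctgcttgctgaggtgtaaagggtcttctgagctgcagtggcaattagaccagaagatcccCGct
VIM, chr10:17227991-17228290, plus strand: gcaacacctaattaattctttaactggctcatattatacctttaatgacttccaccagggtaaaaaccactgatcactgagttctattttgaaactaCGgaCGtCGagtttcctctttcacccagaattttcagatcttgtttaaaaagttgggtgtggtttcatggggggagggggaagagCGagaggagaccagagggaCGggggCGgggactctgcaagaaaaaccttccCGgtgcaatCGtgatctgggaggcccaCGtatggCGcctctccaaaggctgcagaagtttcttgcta
FABP7 holds 6 CpG dinucleotides and VIM 10, against a median of 14 over 35116 RefSeq promoters of this length. The other 7 members have 11 such promoters, with counts from 6 at 1 of the 4 PROM1 starts to 65 at 1 of the 2 BMI1 starts, at the 99.97th percentile. On either strand, the GC box GGGCGG is found in 45.0% of all promoters, once in VIM, and not in these letters in FABP7. The CCAAT box, present in 34.6%, occurs 3 times in FABP7 and not in VIM. The POU octamer ATGCAAAT, present in 1.77% of all promoters, and the TATA box TATAAA, present in 11.5%, were found in none of the 13 promoters of the 9 members. Which of several starts a gene used cannot be read from 1 value per gene.

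Expression of the markers fell into an abundant, a lower and an undetected class. To compare genes, normalised reads were divided by the kilobases of exon in GENCODE 29, and the percentile is that among 13367 tested genes with a length. VIM was highest, with 1519 ± 265 normalised reads per kilobase in WT (SD, n = 3), at percentile 95.55. NES followed at 785 ± 151 (percentile 89.9), PROM1 at 561 ± 95.7 (percentile 84.9) and CD44 at 496 ± 143 (percentile 83.0). BMI1 lay 4.61-fold below CD44, at 108 ± 56.5 (percentile 43.6). FUT4 had 57.4 ± 10.9 normalised reads per kilobase, POU3F2 42.9 ± 8.45 and KLF4 42.5 ± 14.6, at percentiles 28.9, 23.0 and 22.9. In this order, the ranges of 3 WT libraries were apart between VIM and NES, between CD44 and BMI1, and between KLF4 and FABP7. All other neighbours overlapped, so NES, PROM1 and CD44 cannot be ordered beyond their spread, nor can BMI1, FUT4, POU3F2 and KLF4.

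**Figure D1:**
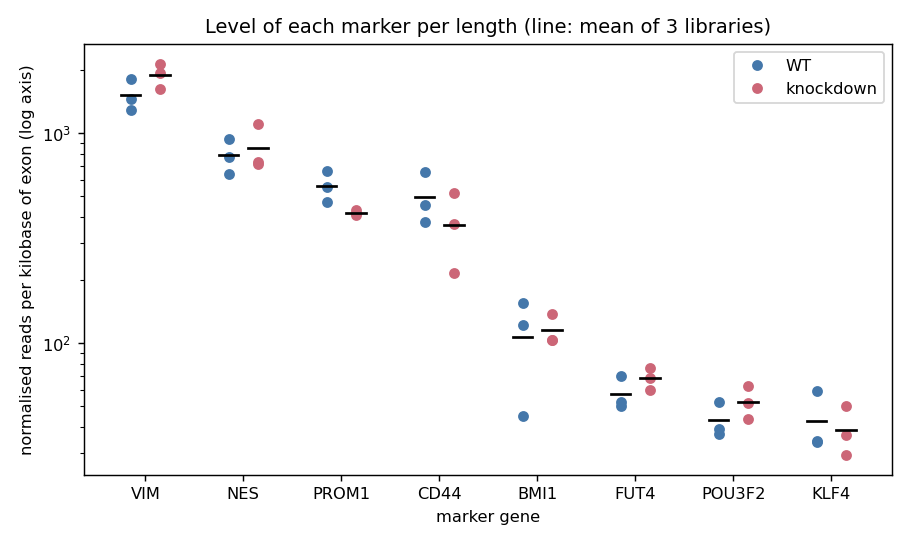
Level of 8 markers in normalised reads per kilobase of exon on a log axis, with 1 point per library (WT blue, knockdown red) and a line at the mean of 3 libraries. VIM, NES, PROM1 and CD44 lie above the other 4 genes in every library, and FABP7, at 0 in WT, is not drawn.

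None of the markers passed the test between knockdown and WT. Of the 9, 8 were tested and FABP7 lay under the filter on low values. Among the 8, 0 had an adjusted p under 0.05 in limma, 0 in limma voom on recovered reads, and 1, PROM1, an unadjusted limma p under 0.05. Over all 13558 genes tested 4.10% were called, 1.78% as higher and 2.32% as lower in knockdown, and 22.0% had an unadjusted p under 0.05. In knockdown 5 of the 8 were higher and 3 lower, with a median difference of 0.14 on the log2 scale against 0.0061 over all tested genes. The median of the markers turned to −0.0081 with library weights, −0.014 without WT 1 and −0.019 without knockdown 2. The median size of the difference, without its sign, was 0.21 for the markers and 0.17 over all tested genes. The groups did not overlap for 1 of the 8, PROM1, against 27.8% of all tested genes. Over all tested genes, the median SD over 3 libraries was 0.18 in WT and 0.12 in knockdown (log2 scale). In WT 8 of 8 markers exceeded it, and in knockdown 7 of 8. The excess was large for BMI1 in WT (SD 0.74) and CD44 in knockdown (0.62). It was small for POU3F2 in WT (0.19) and FUT4 in knockdown (0.14), and PROM1 in knockdown lay below the median (0.040).

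**Figure D2:**
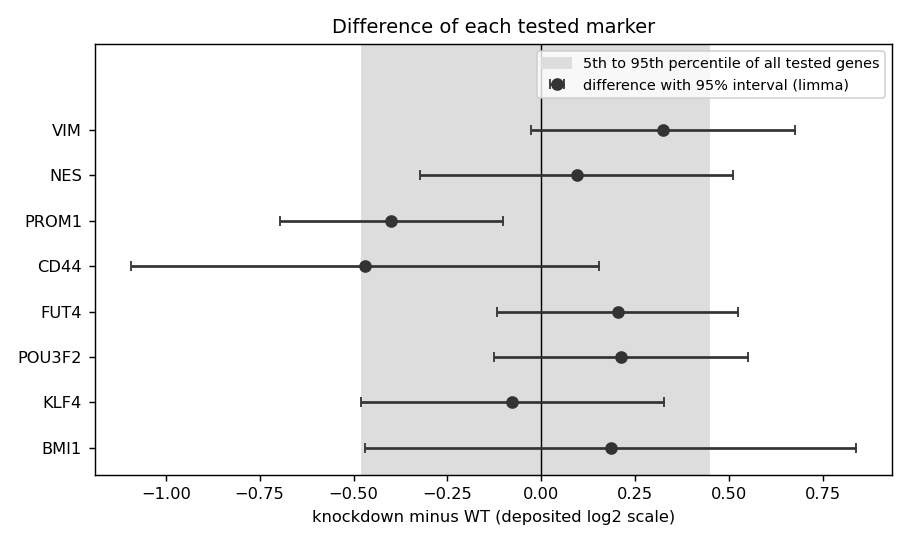
Difference of each tested marker, knockdown minus WT, on the deposited log2 scale (points) with its 95% interval from limma (bars), over the 5th to 95th percentile of all tested genes (grey, −0.48 to 0.45). PROM1, at −0.40, is the one marker whose interval does not reach 0 before adjustment over all genes.

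Both filament genes among the markers had a higher mean in knockdown, and neither passed the test. VIM, on chromosome 10 at 17228259 to 17237593 (GRCh38, plus strand), had 7535, 9327 and 6645 normalised reads in WT 1, 2 and 3, against 10028, 8336 and 11063 in knockdown 1, 2 and 3. Knockdown 1 and 3 lay above all WT libraries, but knockdown 2 lay under WT 2. The means were 7835 ± 1366 and 9809 ± 1377 (SD, n = 3), 125% of WT, and the difference of 0.32 (SE 0.16, 95% interval −0.027 to 0.68, log2 scale) did not pass (limma, adjusted p = 0.261) and was 0.21 without WT 3. VIM-AS1, an antisense gene that shares 641 of 5158 exon bases with VIM, had 10.1 to 28.4 normalised reads per library. Whether counting used strand is not stated in the sources used here, so reads of this stretch cannot be told apart.

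NES, on chromosome 1 at 156668763 to 156677397 (minus strand), had 5231, 3558 and 4303 normalised reads in WT, against 3964, 6114 and 4039 in knockdown. Knockdown 2 was the highest, WT 1 came next and WT 2 was the lowest, so the groups overlapped. The means were 4364 ± 839 and 4706 ± 1220 (SD, n = 3). The difference of 0.094 (SE 0.19, 95% interval −0.32 to 0.51) did not pass (limma, adjusted p = 0.815), and its sign turned without knockdown 2 (−0.11) and without WT 2 (−0.041).

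Other filament genes gave no call either. Of 11 listed, namely the neurofilament, lamin and related genes, 10 were tested, 0 were called, 4 were higher and 6 lower in knockdown (median difference −0.074, log2 scale). NEFH, the heavy neurofilament subunit of mature axons, had the highest level of the list, 5989 ± 3014 normalised reads per kilobase in WT (SD, n = 3), against 785 ± 151 for NES. Its normalised reads were 35303, 13155 and 19513 in WT, against 12998, 11985 and 10929 in knockdown, so the groups were apart, and WT 1 stood far above the others (difference −0.80, SE 0.29, limma, adjusted p = 0.142). GFAP, the filament of astrocytes, had at most 9.98 normalised reads in a library.

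PROM1 was the marker with the most even values in knockdown and the clearest separation. The gene, which encodes a glycoprotein of membrane protrusions, lies on chromosome 4 at 15963076 to 16084378 (minus strand). It had 3496, 4914 and 4103 normalised reads in WT 1, 2 and 3, against 3091, 3026 and 3204 in knockdown 1, 2 and 3. All 3 knockdown libraries lay below all 3 WT libraries, though knockdown 3 and WT 1 were close. The means were 4171 ± 711 and 3107 ± 90.3 (SD, n = 3), so knockdown held 74.5% of WT, and the coefficient of variation was 17.1% in WT and 2.90% in knockdown. The difference of −0.40 (SE 0.13, 95% interval −0.70 to −0.10) did not pass (limma, adjusted p = 0.121). It passed in 2 of 15 alternative fits, with library weights (−0.46, adjusted p = 0.0330) and without WT 1 (−0.52, adjusted p = 0.0394), and the adjusted p ran up to 0.292. Its paralog PROM2 had 6.29 to 19.2 normalised reads per library and was not tested.

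CD44, the receptor for the matrix sugar hyaluronan, varied more between libraries of a group than between groups. The gene lies on chromosome 11 at 35138870 to 35232402 (plus strand). Its normalised reads were 4548, 6549 and 3779 in WT, against 3703, 2150 and 5168 in knockdown. Knockdown 2 was the lowest and WT 2 the highest, 3.05-fold apart, and knockdown 3 lay above WT 1 and WT 3. The means were 4958 ± 1430 and 3674 ± 1509 (SD, n = 3), 74.1% of WT, close to the share of PROM1 but with a much wider spread. The difference of −0.47 (SE 0.28, 95% interval −1.09 to 0.15) did not pass (limma, adjusted p = 0.362). It was −0.14 without knockdown 2 and −0.75 without knockdown 3, and −0.25 without WT 2. CD44 has many splice forms, which 1 value per gene does not separate.

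Ligands and partners of CD44 had no call. Of 15 listed genes 8 were tested, with 5 higher and 3 lower in knockdown (median difference 0.052, log2 scale). Ezrin (EZR), which ties CD44 to the actin cortex, led the list with 1497 ± 288 normalised reads per kilobase in WT (SD, n = 3). Radixin (RDX), of the same linker family, followed at 774 ± 89.2.

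FUT4, a fucosyltransferase that makes Lewis X, lies on chromosome 11 at 94543840 to 94549898 (plus strand). It had 303, 317 and 424 normalised reads in WT, against 412, 365 and 464 in knockdown. Of the WT libraries only WT 3 reached the knockdown range. Group means were 348 ± 65.9 and 413 ± 49.5 (SD, n = 3), 119% of WT, and the difference of 0.20 (SE 0.15, 95% interval −0.12 to 0.53) did not pass (limma, adjusted p = 0.449). It was 0.13 without WT 1 or without knockdown 3 and 0.32 without WT 3. PIWIL4, which shares 683 of 6059 exon bases with FUT4 on the same strand, had 38.1 to 70.8 normalised reads per library, so a part of either count may belong to the other gene. FUT9, the other main Lewis X enzyme of neural cells, had 11.7, 6.31 and 19.96 normalised reads in WT, against 2.02, 0 and 2.15 in knockdown and lay under the filter. It was named after its values were seen. Of 12 listed fucosyltransferases 5 were tested, all 5 were lower and 0 were called (median difference −0.20). POFUT1, which fucosylates Notch receptors, had the highest level, 461 ± 36.5 normalised reads per kilobase in WT.

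**Figure D3:**
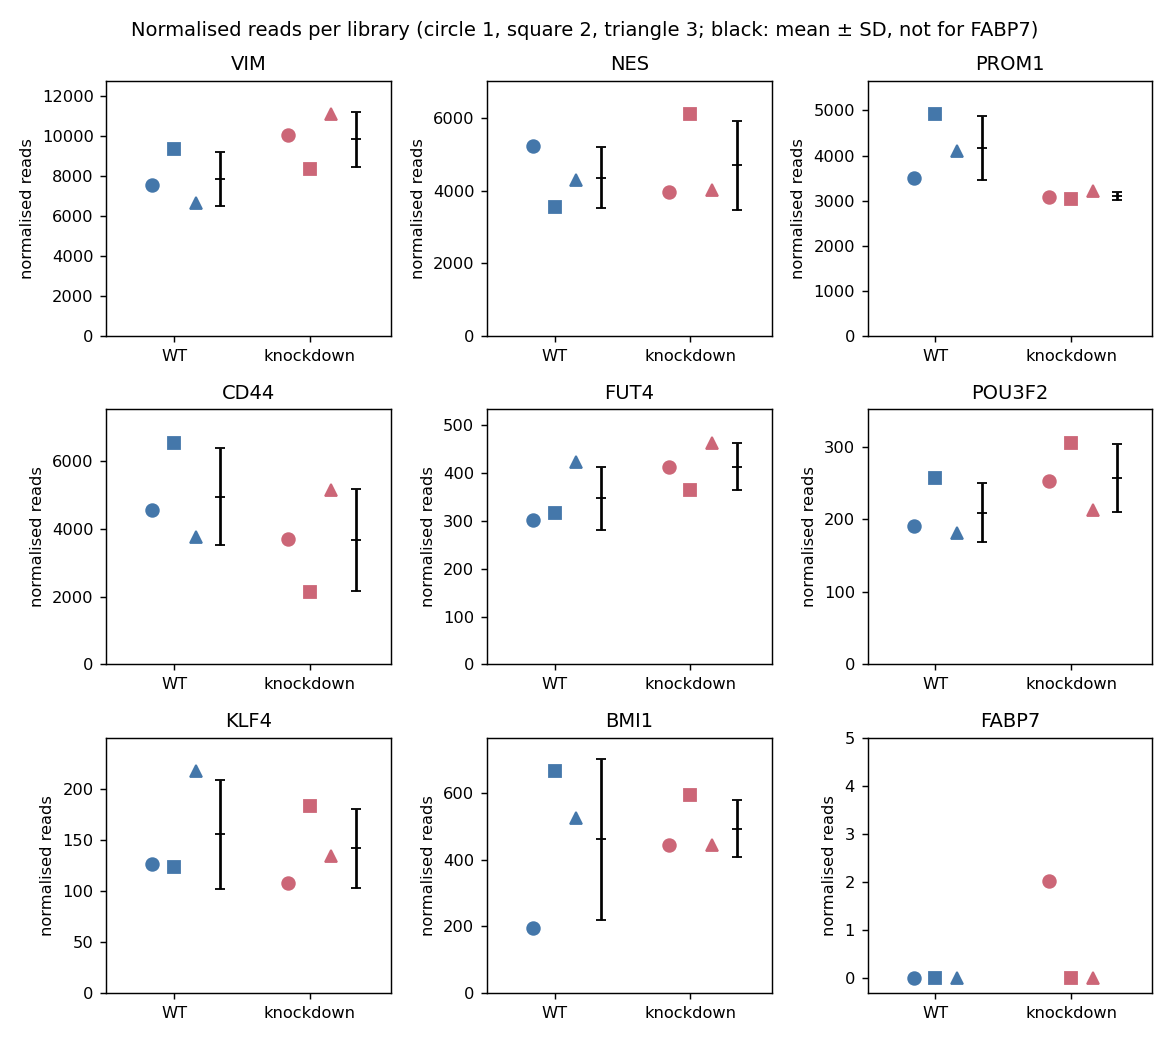
Normalised reads of each marker on a linear axis, 1 panel per gene, with WT in blue and knockdown in red (circle, square and triangle for library 1, 2 and 3) and the mean ± SD in black except for FABP7. The groups are apart in the PROM1 panel alone, WT 1 stands low for BMI1, and FABP7 has 2 reads in knockdown 1 and none elsewhere.

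POU3F2, a POU factor of neuronal progenitors, lies on chromosome 6 at 98834592 to 98839470 (plus strand). Its normalised reads were 190, 257 and 181 in WT, against 253, 306 and 212 in knockdown. WT 2 lay within the knockdown range and the other WT libraries under it. The means were 209 ± 41.2 and 257 ± 46.7 (SD, n = 3), 123% of WT (difference 0.21, SE 0.15, 95% interval −0.13 to 0.55; limma, adjusted p = 0.452). The difference was 0.060 with library weights, 0.11 without knockdown 2 and 0.32 without WT 2. With 130 to 407 reads per library, and the stabilised scale understating changes of genes this low, the interval bears on that scale only. Among 11 other POU factors 4 were tested and 0 called, 2 higher and 2 lower. POU2F1, a broadly expressed octamer factor, had the highest level, 182 ± 14.3 normalised reads per kilobase in WT. POU3F3, a close paralog of POU3F2 named after its values were seen, had 111, 210 and 142 normalised reads in WT, against 55.7, 85.5 and 65.5 in knockdown. Its groups were apart and its difference of −0.64 (SE 0.17) did not pass (limma, adjusted p = 0.0614). POU3F1, also named after its values were seen, went the other way. It had 89.3, 55.5 and 59.1 normalised reads in WT, against 119, 153 and 93.35 in knockdown. The groups of POU3F1 were apart too, and its difference of 0.45 (SE 0.16) did not pass (limma, adjusted p = 0.126).

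KLF4, a zinc finger factor used in reprogramming to pluripotency, lies on chromosome 9 at 107484852 to 107490482 (minus strand). It had 126, 124 and 217 normalised reads in WT, against 107, 184 and 134 in knockdown, and the groups overlapped. WT 3 was the highest and knockdown 1 the lowest. The means were 156 ± 53.4 and 142 ± 38.7 (SD, n = 3; difference −0.077, SE 0.18, 95% interval −0.48 to 0.33; limma, adjusted p = 0.845). The sign turned without WT 3 (0.097) and without knockdown 1 (0.035).

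Of 16 other KLF factors 11 were tested, with 5 higher, 6 lower and 1 called. KLF5, a factor of proliferating epithelium and of embryonic stem cells, fell to 62.1% of WT, with means of 529 ± 76.1 and 329 ± 31.4 normalised reads (SD, n = 3) and a difference of −0.55 (SE 0.13; limma, adjusted p = 0.0492). Its WT values were 482, 489 and 617 and its knockdown values 357, 335 and 295. The call was lost in 8 of 15 alternatives (adjusted p 0.0203 to 0.200), namely quantile normalisation, limma voom, the replicate block and the fits without WT 2, WT 3 or any 1 knockdown library. KLF10, a TGF-beta inducible repressor, had the highest level of the list, 671 ± 64.1 normalised reads per kilobase in WT.

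BMI1 was set apart by a single library. The gene, a subunit of Polycomb repressive complex 1, lies on chromosome 10 at 22321211 to 22331484 (plus strand). It had 193, 665 and 524 normalised reads in WT 1, 2 and 3, against 443, 592 and 442 in knockdown 1, 2 and 3. WT 1 was thus the lowest and WT 2 the highest of all 6, 3.44-fold apart, from 132 and 1054 reads. The means were 461 ± 242 and 493 ± 86.4 (SD, n = 3), and the difference of 0.19 (SE 0.30, 95% interval −0.47 to 0.84) did not pass (limma, adjusted p = 0.761). Without WT 1 it was −0.23 and with library weights −0.077. A readthrough gene joins BMI1 to its neighbour COMMD3 and shares 1000 of 4283 exon bases with BMI1. COMMD3 itself had 143, 148 and 105 normalised reads in WT, against 197, 136 and 146 in knockdown, without the low value of WT 1. The sum of both genes, a check chosen after the data were seen, gave 337, 812 and 629 in WT, against 641, 728 and 588 in knockdown (difference 0.18, SE 0.23, limma, adjusted p = 0.693).

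Among partners of BMI1, PHC1 fell in knockdown. Of 18 other genes of Polycomb repressive complex 1, which marks histone H2A with ubiquitin, 17 were tested, 2 fell, 0 rose, and 11 of 17 were lower (median difference −0.11). PHC1, a polyhomeotic subunit, had 1073, 1098 and 954 normalised reads in WT, against 733, 625 and 738 in knockdown. It fell to 67.1% of WT (difference −0.51, SE 0.12, limma, adjusted p = 0.0437). With means of 1042 ± 77.0 and 699 ± 63.8 normalised reads (SD, n = 3), all 3 knockdown libraries lay below all 3 WT libraries. The call was lost in 6 of 15 alternatives, the replicate block and the fits without WT 1, WT 2 or any 1 knockdown library (adjusted p 0.0209 to 0.135). PHC2 had the highest level, 1095 ± 251 normalised reads per kilobase in WT (adjusted p = 0.502, limma). PCGF2, the closest paralog of BMI1, was named after its values were seen: it had 305 normalised reads in WT 2 and 15.1 to 39.5 in the other libraries.

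FABP7 was not expressed at a level these libraries could show. The gene lies on chromosome 6 at 122779475 to 122784074 (plus strand). It had 0 reads in all 3 WT libraries, 2 reads in knockdown 1 and 0 in knockdown 2 and 3. A count of 0 allows up to 3 reads, that is 0.0773 to 0.173 CPM in the WT libraries, for counting error only. No test or fold is given. Of 11 other lipid carriers listed, 10 were in the table, 3 were tested and 0 called. CRABP2, which carries retinoic acid to its nuclear receptor, had the highest level, with 17060 ± 2473 normalised reads per kilobase in WT, at percentile 99.8. Its group means were 18766 ± 2721 normalised reads for WT and 21838 ± 1947 for knockdown (SD, n = 3; limma, adjusted p = 0.431). FABP5, named after its values were seen, had 2 reads over all 6 libraries. It has processed pseudogenes, and the sources used here do not give how reads with several matches were counted.

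No library stood at one end for most of the markers. WT 2 was the highest for 3 of the 8 tested markers (PROM1, CD44 and BMI1) and the lowest for NES. Knockdown 2 was the highest for NES and POU3F2 and the lowest for CD44 and PROM1. WT 1 was the lowest for BMI1 and FUT4, and WT 3 for VIM and POU3F2. Profiles over the 6 libraries, each centred on its own mean, differed least between VIM and POU3F2 (root mean square difference 0.24 on the log2 scale, n = 6 libraries) and most between NES and CD44 (0.71). The 2 abundant members that were lower in knockdown, PROM1 and CD44, differed by 0.38.

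**Figure D4:**
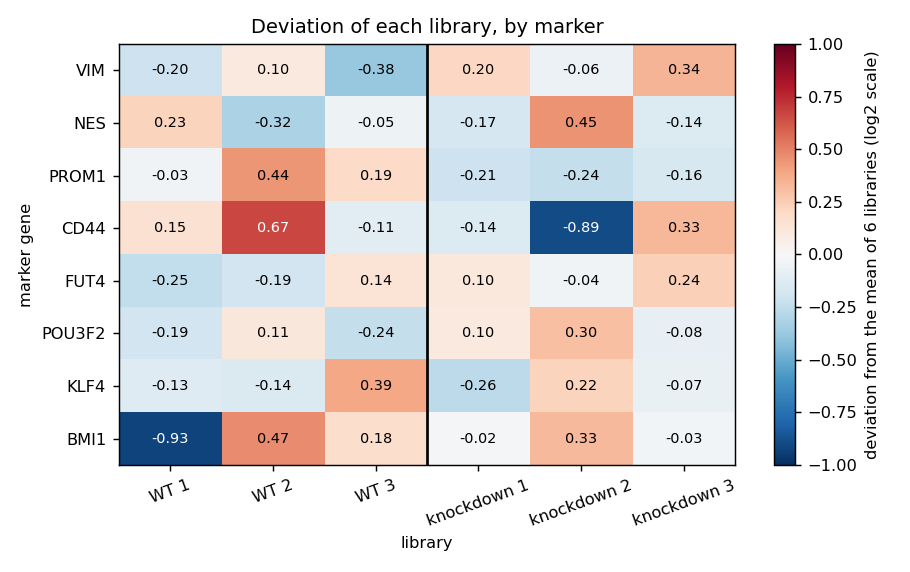
Deviation of each library from the mean of 6 libraries on the log2 scale, by marker (rows) and library (columns, WT left of the line). The darkest cells are BMI1 in WT 1 (−0.93) and CD44 in knockdown 2 (−0.89), and PROM1 is the row whose knockdown cells all lie below its WT cells.

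Outside the markers, the tested genes with the most similar profiles were found by the same measure among 12353 genes with a symbol, taking 2 for each. They were RGS17 and LRRC37A16P for PROM1 (root mean square difference 0.050 each on the log2 scale), PEX2 (0.032) and PIGU (0.038) for VIM, and ZNF37BP (0.060) and PCBP1-AS1 (0.079) for NES. For POU3F2 they were SEMA4B (0.030) and CSPG4 (0.035), the latter a proteoglycan of glial progenitors. For CD44 they were DTNA (0.094) and IGFBP3 (0.12), for BMI1 LAPTM4BP2 (0.083) and RNF139 (0.14), for FUT4 BTF3L4P2 (0.041) and C10orf88 (0.056), and for KLF4 STX16-NPEPL1 (0.038) and ZBTB3 (0.052). The median over all compared genes was 0.25 to 0.51 for each marker. The scale understates changes of low genes, so a low gene can be this close to a marker with a larger fold change. LAPTM4BP2, for one, ran from 32.2 to 173 normalised reads, against 193 to 665 for BMI1. DTNA followed CD44 library by library, with 640, 931 and 619 normalised reads in WT, against 566, 279 and 722 in knockdown. RNF139 had 860 normalised reads in WT 1 against 1733 to 2084 elsewhere, the same low library as BMI1.

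Further genes of the stem and progenitor state, from a list of 30, had 1 call. Of these 25 were in the table and 18 were tested, with 10 higher and 8 lower in knockdown (median difference 0.052). CXCR4, the chemokine receptor that holds granule cell progenitors in the outer cerebellum, rose 2.08-fold, with means of 129 ± 18.1 and 269 ± 66.6 normalised reads (SD, n = 3) and a difference of 0.70 (SE 0.16; limma, adjusted p = 0.0383). Its values were 135, 144 and 109 in WT, against 261, 340 and 207 in knockdown, and the groups were apart. The call was lost in 7 of 15 alternatives, the replicate block and the fits without each of the 6 libraries in turn (adjusted p 0.0220 to 0.138). ID1 and ID3, inhibitors of neural bHLH factors, had the highest levels, 4156 ± 806 and 3224 ± 739 normalised reads per kilobase in WT, and neither passed (limma, adjusted p = 0.413 and 0.180). SOX2, the defining factor of neural stem cells, had 8 reads over all 6 libraries, and this value was singled out after it was seen.

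Genes of neuronal differentiation, a list of 12, had 5 tested members and 0 calls, with 2 higher and 3 lower. NEUROD1, the bHLH factor of granule neurons, had the highest level, 716 ± 375 normalised reads per kilobase in WT, and was lowest in WT 3 (974 normalised reads against 2581 to 3589 elsewhere; limma, adjusted p = 0.452). NCAM1, the neural cell adhesion molecule, came next, with means of 5395 ± 1522 normalised reads for WT and 3112 ± 233 for knockdown (SD, n = 3; difference −0.73, SE 0.19, limma, adjusted p = 0.0621). DCX, the microtubule protein of migrating neuroblasts, was under the filter and was named after its values were seen, with 2.93, 15.1 and 1.54 normalised reads in WT, against 52.6, 55.3 and 60.1 in knockdown. MAP2, a tested gene of the list also named after its values were seen, had 29.3, 25.2 and 13.8 normalised reads in WT. In knockdown it had 54.6, 163.5 and 40.8. The groups of MAP2 were apart, and its difference of 0.71 (SE 0.24) did not pass (limma, adjusted p = 0.121). The other listed genes under the filter did not share the rise of DCX. TUBB3, RBFOX3, ELAVL3 and STMN2 had lower means in knockdown (43.4%, 54.5%, 61.8% and 76.9% of WT). ELAVL4 had 2 reads over all 6 libraries.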

How the data were processed

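Total RNA of 6 D283 Med libraries (3 WT, 3 knockdown) had been sequenced. The authors used, per the submitters' processing notes, STAR, DESeq, CASAVA 1.8.2, Trim Galore, FastQC and MultiQC, with the build GRCh38. Not given in the sources used here are the read counter, annotation, strand and filters. The deposited values are log2-like: the authors had divided reads by a size factor and applied a variance-stabilising transformation, as its name and values show. The function was inverted here from the lowest value (5.79, a count of 0), and 100% of values became whole reads within 0.01.

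Genes whose mean on the deposited log2 scale was at least 1 above the lowest value were tested, 13558 rows, leaving out 18227. A value at this cut-off equals 27.6 normalised reads, but the filter is not on the mean of normalised reads. DCX, low in WT, thus lay under it with a mean of 56.0 normalised reads in knockdown. Tests used limma 3.58.1 under R 4.3.3 (mean-variance trend, two-sided, no covariates), with Benjamini-Hochberg adjustment over all tested genes and a threshold of 0.05. The script was tested on simulated data. Differences are knockdown minus WT, and this scale understates changes of low genes. With 3 against 3 libraries an exact permutation test has a smallest p of 0.1. Named were all 9 markers, every called gene of each list (results of 2 list genes are not reported here), the 1 or 2 genes of highest level per list, and the 2 most similar profiles per marker. Markers and lists were chosen with earlier results of these data known. Alternatives were other filters, scalings, variance models, library weights, limma voom, the replicate number as a block, and each library left out. The sum of BMI1 and COMMD3 was added after the data were seen. Gene positions and lengths are from GENCODE 29 (GRCh38), matched by name, and promoters from RefSeq (all 9 matched).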

Additional observations from a re-analysis of the deposited data

How the results depend on the processing

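No marker passed the test in 13 of 15 alternative fits, and 1, PROM1, passed with library weights (1 marker called; difference −0.46, adjusted p = 0.0330) and without WT 1 (−0.52, adjusted p = 0.0394). The count of called markers was thus 0 to 1 over the fits that leave out a library. The median difference over the markers, 0.14, was −0.0081 with library weights and −0.019 to 0.20 with 1 library left out, below 0 without WT 1 (−0.014) and without knockdown 2 (−0.019). Signs turned for BMI1 with library weights (−0.077) and without WT 1 (−0.23), for NES without WT 2 (−0.041) and knockdown 2 (−0.11), and for KLF4 without WT 3 (0.097) and knockdown 1 (0.035). With 1 library left out they ranged from −0.23 to 0.47 for BMI1, from −0.11 to 0.23 for NES and from −0.21 to 0.097 for KLF4. VIM, POU3F2 and FUT4 stayed above 0 and PROM1 and CD44 below it in each of 15 alternatives, and the cause of the changes was not tested.

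Over all genes, 242 were called higher and 314 lower. The counts were 532 and 681 with library weights, 101 and 120 in the fit with a replicate block, and 25 to 332 and 31 to 396 with 1 library left out, lowest without knockdown 1 and highest without WT 1. They were 93 and 109 without WT 2, 48 and 77 without knockdown 2, and 41 and 50 without knockdown 3. Deviations from the group mean correlated across genes with r of −0.0045, −0.25 and 0.0046 for same-numbered libraries. For libraries of unlike numbers r ran from −0.14 to 0.18. Whether libraries were prepared in pairs cannot be read from these values, as the WT numbers are those of the columns. The block called no marker. With the longest transcript as length, percentiles of level were 97.1 for VIM, 88.4 for PROM1, 86.8 for CD44 and 85.3 for NES. NES thus came after PROM1 and CD44 by this length. Percentiles of the lower class were 41.8 for BMI1, 23.5 for FUT4, 22.8 for KLF4 and 18.5 for POU3F2. The fewest reads of a tested marker in a library were 86 for KLF4, 130 for POU3F2 and 132 for BMI1, all in WT 1, and whether depth set their spread was not tested.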
